A study of Mus musculus with 12 samples.

Results

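Cholesterol synthesis and lipogenesis genes were followed in the livers of Tmprss6 KO and iron-deficient mice before and after LPS. A list of 34 genes by name covers the mevalonate and sterol segments of cholesterol synthesis, the SREBP system and other lipogenic regulators, fatty acid synthesis with its acetyl-CoA and NADPH supply, elongation and desaturation, and triglyceride assembly. Of these genes 32 had a named probe and 30 were detected (detection p under 0.01) on at least 1 of 12 arrays, out of 11571 genes and unnamed probes tested. The probes of Mvk, for mevalonate kinase, and Acaca, for the cytosolic acetyl-CoA carboxylase, were not detected on any array (lowest detection p of 0.113 and 0.765), and Hmgcs1 and Fdft1 were not analysed here. Each gene is given by its brightest probe.

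Mammalian liver makes cholesterol from acetyl-CoA through mevalonate, farnesyl diphosphate and squalene, and makes fatty acids from the same acetyl-CoA through malonyl-CoA. Both routes are driven by the SREBP transcription factors, which SCAP carries from the endoplasmic reticulum to the Golgi when sterols are low and which the INSIG proteins hold back when sterols are plentiful. The SREBP encoded by Srebf2 acts mainly on sterol genes and the one encoded by Srebf1 mainly on lipogenic genes, together with the carbohydrate-responsive factor ChREBP.

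The livers of 12 mice, 3 in each of 4 groups, were profiled one by one on Illumina expression BeadChips. KO LPS and KO UT livers came from Tmprss6 KO mice kept on an iron replete diet and injected with LPS or saline. IDA LPS and IDA UT livers came from wild type control littermates that were made iron deficient by diet and were given the same injections. All mice had a mixed 129/Ola × C57BL/6 background, began the diet at 4 weeks of age, stayed on it for 3 weeks and were 7 weeks old. LPS, a bacterial endotoxin used here at 0.1 mg/kg, was given 6 hours before the livers were taken. Tmprss6 encodes a liver protease that restrains the iron hormone hepcidin, and KO mice are iron deficient with high hepcidin. Diet and genotype changed together between KO and IDA mice and cannot be told apart, and no group of wild type mice on an iron replete diet was included. Differences were tested with limma over all 4 groups. They are given as log2 ratios of normalized intensity, with p-values adjusted by the Benjamini-Hochberg method over all 11571 features, and a gene was called at an adjusted p under 0.05. The value after ± is the standard error of the log2 ratio.

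Detected probes numbered 13544 to 14423 in KO LPS, 12641 to 13089 in IDA LPS, 12986 to 14334 in KO UT and 12721 to 13272 in IDA UT livers. Tmprss6 was lower in KO livers, with a log2 ratio of -2.02 (adjusted p = 0.000394) after LPS and -2.38 (adjusted p = 0.00209) untreated. A strong signal of Xist, the RNA of the inactive X chromosome, was found in KO UT 1, KO UT 2 and IDA UT 1 (log2 intensity 11.84 to 12.05) together with background signals of the Y-linked Eif2s3y (4.80 to 4.94), although the methods describe the KO mice as male. Counts of called genes that rest on untreated livers are therefore also given with a term for the signal. They are given without these 3 livers only where KO UT, then 1 liver, is not compared. Of the 8 hepatocyte markers all were measured. In bulk liver RNA, fewer cells of a type and less RNA per cell cannot be told apart.

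The promoters of 4 genes that carry the results below are shown, because Mvd rose after LPS in both genotypes, Sc5d and Gpam fell after LPS in IDA livers and were higher in KO LPS than in IDA LPS livers, and Pnpla3 was higher in untreated KO livers. Sequences are from RefSeq (GRCm38.p6), run from 250 bases before to 50 after the transcription start and are written on the strand of the gene. Capitals mark matches, on either strand, to the sterol response element CACNCCAC, to the E-box CACGTG or to the CCAAT box CCAAT.
Mvd, chr8:122443373-122443672, minus strand: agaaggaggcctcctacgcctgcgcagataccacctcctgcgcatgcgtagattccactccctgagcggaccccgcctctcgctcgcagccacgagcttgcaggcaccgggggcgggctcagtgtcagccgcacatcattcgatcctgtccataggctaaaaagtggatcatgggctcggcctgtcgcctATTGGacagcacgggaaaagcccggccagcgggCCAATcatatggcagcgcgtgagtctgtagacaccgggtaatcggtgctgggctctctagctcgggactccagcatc
Sc5d, chr9:42264251-42264550, minus strand: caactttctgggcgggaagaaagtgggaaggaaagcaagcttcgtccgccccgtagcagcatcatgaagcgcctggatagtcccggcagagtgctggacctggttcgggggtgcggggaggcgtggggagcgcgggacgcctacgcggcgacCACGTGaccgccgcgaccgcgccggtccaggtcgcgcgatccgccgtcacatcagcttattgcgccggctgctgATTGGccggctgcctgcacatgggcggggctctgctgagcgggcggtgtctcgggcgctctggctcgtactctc
Gpam, chr19:55127189-55127488, minus strand: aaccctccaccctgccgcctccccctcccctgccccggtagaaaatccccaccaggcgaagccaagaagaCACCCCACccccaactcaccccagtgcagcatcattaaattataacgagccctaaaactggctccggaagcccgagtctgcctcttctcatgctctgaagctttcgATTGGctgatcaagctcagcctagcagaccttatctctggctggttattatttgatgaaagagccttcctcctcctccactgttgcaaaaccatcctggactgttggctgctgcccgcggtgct
Pnpla3, chr15:84167566-84167865, plus strand: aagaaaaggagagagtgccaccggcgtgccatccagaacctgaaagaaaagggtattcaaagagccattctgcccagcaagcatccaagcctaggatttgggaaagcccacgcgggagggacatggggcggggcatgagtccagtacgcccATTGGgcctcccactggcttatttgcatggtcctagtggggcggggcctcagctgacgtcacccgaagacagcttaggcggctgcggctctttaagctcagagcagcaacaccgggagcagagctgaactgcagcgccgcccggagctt

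In these windows Mvd holds 2 CCAAT boxes, whose first bases lie 60 and 27 bases before the start, and Sc5d an E-box and a CCAAT box, at 98 and 24 bases before the start. Gpam has 2 windows in the table, and the one printed was taken for its sterol response element, 180 bases before the start, and also holds a CCAAT box at 74 bases. Pnpla3 holds a CCAAT box at 99 bases before the start. Among 35 windows of 25 measured genes on the list, 24 (68.6%) held a CCAAT box, against 12289 of all 32851 mouse windows (37.41%). The E-box lay in 17.1% of the windows of the list and in 7.15% of all windows. The sterol response element lay in 3 windows (8.6%), those of Gpam, Insig1 and Mlxipl, and in 6.24% of all windows. A match is a run of letters and not a measured binding site, and the CCAAT box and the other 2 motifs share no bases in the printed windows.

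After LPS most genes of fatty acid synthesis, elongation and acetyl-CoA supply fell in IDA livers, while Sqle and Mvd of the sterol pathway rose in both genotypes and Pnpla3 and Srebf2 rose in IDA livers. Of the 30 measured genes, 16 were called in IDA LPS vs IDA UT livers, 12 lower and 4 higher, where 47.9% of all features were called (26% lower and 21.9% higher). Their median log2 ratio was -0.48, against -0.06 over all features. In KO LPS vs KO UT livers 5 genes were called, 3 lower and 2 higher, where 18.8% of all features were called (8.57% lower and 10.2% higher), and the median was -0.08, against -0.04 over all features. In IDA livers 15 of the 30 genes were lower and 5 higher without overlap between the groups (30.4 and 25.6% of all features). In KO livers 3 were lower and 5 higher without overlap (18.9 and 18.1% of all features).

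**Figure D1:**
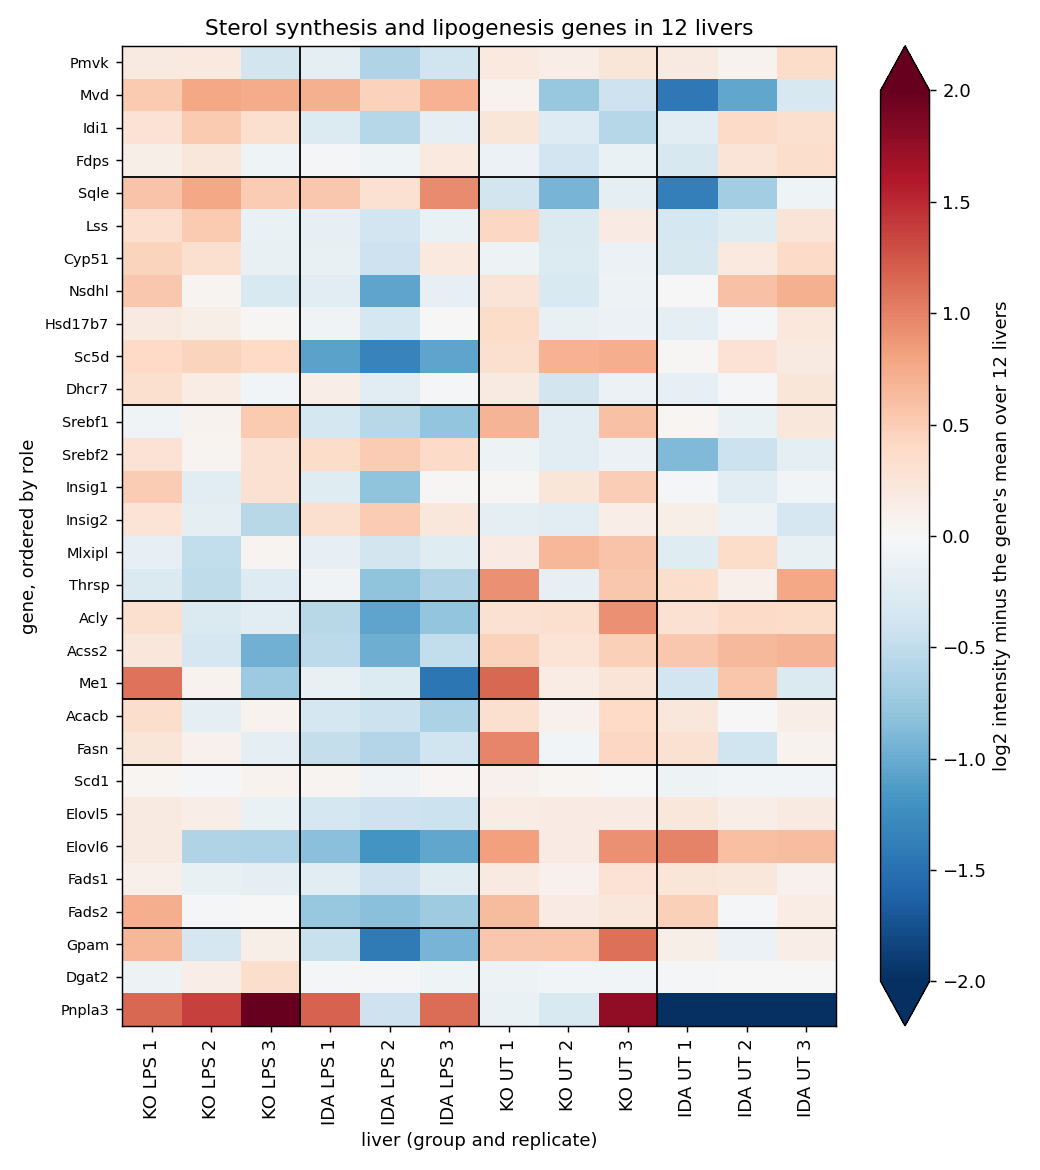
Log2 intensity of 30 genes (down, ordered by role, with lines between roles) in 12 livers (across), as the difference from the gene's mean over the 12 livers, red above and blue below it, with the colour scale ending at 2 in each direction. Elongation, acetyl-CoA and fatty acid genes are bluest in the IDA LPS livers, and Mvd and Sqle are red in all 6 LPS-treated livers.

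Of the 3 livers with a strong Xist signal, 2 are KO UT livers. Without the 3 livers KO UT is 1 liver whose spread is taken from the other groups, so no count is given for KO LPS vs KO UT. With a term for the signal 2 genes were called there, where 11.7% of all features were called. In IDA LPS vs IDA UT livers, omission of the 3 livers gave 18 called genes and the term gave 16. The shares of all features were 43.9 and 46.0%.

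**Figure D2:**
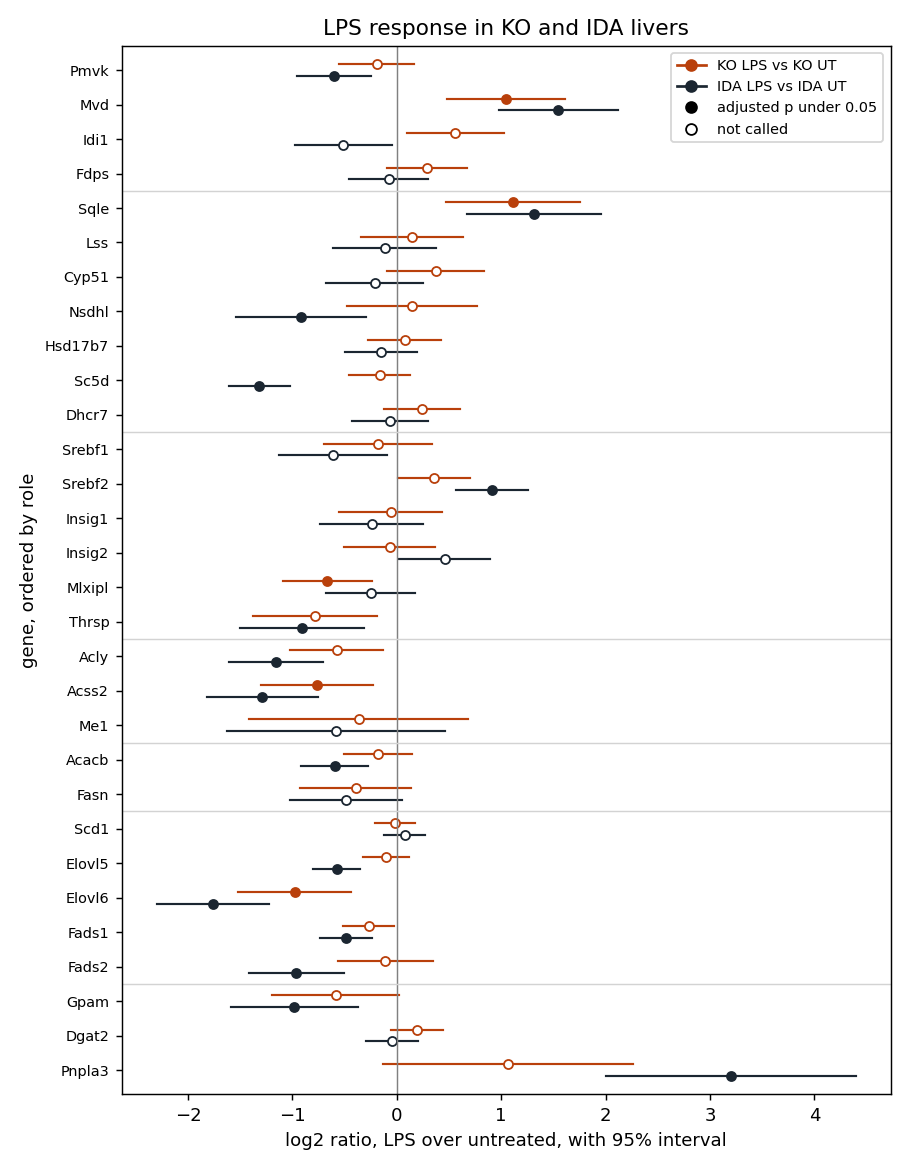
Log2 ratio of LPS-treated over untreated livers for each gene, orange for KO and black for IDA mice, with 95% intervals that are not adjusted for the number of genes and with filled points for an adjusted p under 0.05. Filled black points lie mostly left of 0 among the lipogenic genes (down to -1.76 for Elovl6), and the orange points of the same genes lie nearer to 0.

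In the mevalonate segment, Mvd rose in both genotypes and Pmvk fell in IDA livers. Mvd, whose enzyme decarboxylates mevalonate diphosphate to the first isoprenoid unit, had log2 intensities of 10.47, 10.71 and 10.68 in KO LPS livers, 10.65, 10.40 and 10.63 in IDA LPS livers, 10.00, 9.19 and 9.53 in KO UT livers and 8.51, 8.89 and 9.62 in IDA UT livers. All 6 LPS-treated livers lay above all 6 untreated livers. LPS gave a log2 ratio of 1.05 ± 0.26 (adjusted p = 0.0158) in KO and 1.55 ± 0.26 (adjusted p = 0.000471) in IDA livers, and the difference between these responses was not called (-0.50, adjusted p = 0.421). In KO livers the call ended without KO UT 2 (adjusted p = 0.0635), KO LPS 2 (adjusted p = 0.0592) or KO LPS 3 (adjusted p = 0.0519), and with the term for Xist (adjusted p = 0.118).

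Pmvk, which makes the diphosphate that Mvd uses, stood at 10.91, 10.92 and 10.36 in KO LPS livers, 10.53, 10.12 and 10.34 in IDA LPS livers, 10.92, 10.86 and 10.98 in KO UT livers and 10.90, 10.80 and 11.09 in IDA UT livers. The IDA LPS livers lay below every untreated liver, whereas the KO LPS livers overlapped the KO UT livers. Its log2 ratio was -0.19 (adjusted p = 0.452) in KO and -0.60 (adjusted p = 0.00968) in IDA livers. Idi1, which isomerizes isopentenyl diphosphate, had log2 intensities of 7.35, 7.59 and 7.39 in KO LPS livers, 6.80, 6.51 and 6.87 in IDA LPS livers, 7.32, 6.82 and 6.51 in KO UT livers and 6.86, 7.45 and 7.39 in IDA UT livers. The KO LPS livers lay above the KO UT livers, and IDA LPS 3 lay at the level of IDA UT 1 with the other IDA LPS livers below the IDA UT livers. Neither response was called (0.56, adjusted p = 0.0864 in KO and -0.51, adjusted p = 0.0663 in IDA livers), while their difference was (1.07 ± 0.30 (adjusted p = 0.0416)). Leaving out any of 10 livers ended that call (adjusted p up to 0.0915), the exceptions being IDA UT 1 and KO UT 1, and 1 of the 3 IDA LPS livers did not detect the gene. The call also ended with the Xist term (adjusted p = 0.0578), with the replicate block (adjusted p = 0.07) and with no filter on dim probes (adjusted p = 0.0808). Fdps, which builds farnesyl diphosphate, gave 0.29 (adjusted p = 0.28) in KO and -0.08 (adjusted p = 0.739) in IDA livers.

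In the squalene and sterol segment, Sqle rose in both genotypes and Sc5d and Nsdhl fell in IDA livers. Sqle, whose epoxidase opens the sterol branch, had log2 intensities of 13.65, 13.85 and 13.59 in KO LPS livers, 13.62, 13.39 and 14.03 in IDA LPS livers, 12.71, 12.16 and 12.88 in KO UT livers and 11.71, 12.39 and 12.99 in IDA UT livers. Every LPS-treated liver lay above every untreated liver. Sqle had a log2 ratio of 1.11 ± 0.29 (adjusted p = 0.0213) in KO and 1.32 ± 0.29 (adjusted p = 0.00308) in IDA livers, or 2.16-fold and 2.49-fold. Its KO call ended without KO UT 2 (adjusted p = 0.0816) or KO LPS 2 (adjusted p = 0.0779) and with the term for strong Xist signal (adjusted p = 0.171). Without the livers with that signal, where KO UT is 1 liver, the KO ratio was 0.81.

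Sc5d, the sterol desaturase near the end of the pathway, had log2 intensities of 9.71, 9.76 and 9.72 in KO LPS livers, 8.24, 7.97 and 8.26 in IDA LPS livers, 9.64, 10.00 and 10.03 in KO UT livers and 9.33, 9.60 and 9.50 in IDA UT livers. The 3 IDA LPS livers lay apart, below the other 9. LPS gave -0.16 ± 0.13 (adjusted p = 0.433) in KO and -1.32 ± 0.13 (adjusted p = 1.11e-05) in IDA livers, a level 2.49-fold lower after LPS in IDA mice. The responses differed by 1.15 ± 0.19 (adjusted p = 0.00405), and no omission of 1 liver ended this call (adjusted p of 0.00467 to 0.0129).

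Nsdhl, which removes methyl groups from the sterol ring, stood at 11.03, 10.54 and 10.18 in KO LPS livers, 10.26, 9.43 and 10.32 in IDA LPS livers, 10.74, 10.18 and 10.38 in KO UT livers and 10.50, 11.07 and 11.19 in IDA UT livers. IDA LPS livers lay below IDA UT livers, and KO LPS overlapped KO UT livers. Nsdhl had a log2 ratio of 0.15 (adjusted p = 0.768) in KO and -0.92 (adjusted p = 0.0197) in IDA livers, and the IDA call ended without IDA UT 2 (adjusted p = 0.0615), IDA UT 3 (adjusted p = 0.0715) or IDA LPS 2 (adjusted p = 0.0835). The other 4 sterol genes were not called in either genotype: Lss (lanosterol synthase), Cyp51 (lanosterol demethylase), Hsd17b7 (sterol ketoreductase) and Dhcr7 (the last reductase) had log2 ratios of 0.08 to 0.38 in KO livers and of -0.21 to -0.06 in IDA livers.

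Among the regulators, Srebf2 rose and Thrsp fell in IDA livers, and Mlxipl fell in KO livers. Srebf2 had log2 intensities of 9.27, 9.03 and 9.29 in KO LPS livers, 9.34, 9.48 and 9.37 in IDA LPS livers, 8.88, 8.77 and 8.86 in KO UT livers and 8.10, 8.55 and 8.80 in IDA UT livers. The LPS-treated livers lay above the untreated ones in each genotype. Its response was 0.36 ± 0.16 (adjusted p = 0.141) in KO and 0.91 ± 0.16 (adjusted p = 0.00059) in IDA livers, and the difference between responses was not called (-0.55, adjusted p = 0.133). A second, dimmer Srebf2 probe was not called in IDA livers (0.07, adjusted p = 0.657).

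Thrsp, which encodes a thyroid hormone-responsive nuclear protein of lipogenesis, stood at 12.36, 12.14 and 12.38 in KO LPS livers, 12.57, 11.84 and 12.05 in IDA LPS livers, 13.57, 12.49 and 13.19 in KO UT livers and 13.00, 12.75 and 13.42 in IDA UT livers. LPS-treated livers lay below untreated ones in both genotypes, at -0.78 (adjusted p = 0.0643) in KO and -0.91 (adjusted p = 0.0159) in IDA livers. The IDA call ended without IDA UT 3 (adjusted p = 0.0659), IDA LPS 2 (adjusted p = 0.0648) or IDA LPS 3 (adjusted p = 0.0506). Mlxipl, which encodes ChREBP, had log2 intensities of 11.20, 10.87 and 11.42 in KO LPS livers, 11.21, 10.99 and 11.12 in IDA LPS livers, 11.53, 12.02 and 11.94 in KO UT livers and 11.11, 11.73 and 11.22 in IDA UT livers. The KO LPS livers lay below the KO UT livers and the IDA groups overlapped. Mlxipl had a log2 ratio of -0.67 (adjusted p = 0.0335) in KO and -0.25 (adjusted p = 0.314) in IDA livers. The KO call ended without KO UT 2 (adjusted p = 0.111), KO UT 3 (adjusted p = 0.095), KO LPS 1 (adjusted p = 0.0607) or KO LPS 2 (adjusted p = 0.133). Without the livers with strong Xist signal, where KO UT is 1 liver, the KO ratio was -0.77. A second Mlxipl probe was called lower in both IDA (-1.26, adjusted p = 0.000755) and KO livers (-0.82, adjusted p = 0.0274). It was also called higher in KO LPS than in IDA LPS livers (0.74, adjusted p = 0.0299), where the brightest probe was not (0.06). The 2 probes thus gave different calls on the IDA response and on that comparison.

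Srebf1 had log2 intensities of 9.40, 9.55 and 10.00 in KO LPS livers, 9.13, 8.92 and 8.69 in IDA LPS livers, 10.16, 9.26 and 10.07 in KO UT livers and 9.52, 9.35 and 9.70 in IDA UT livers. IDA LPS livers lay below all IDA UT livers, at -0.61 (adjusted p = 0.0505), just outside the threshold, and KO groups overlapped (-0.18 (adjusted p = 0.641)). Insig1 and Insig2, the endoplasmic reticulum anchors, were not called in either genotype, with -0.06 and -0.07 in KO and -0.24 and 0.46 in IDA livers.

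Of the genes that supply acetyl-CoA, Acly fell in IDA livers and Acss2 in both genotypes. Acly, which cleaves citrate to cytosolic acetyl-CoA, had log2 intensities of 14.10, 13.49 and 13.54 in KO LPS livers, 13.22, 12.72 and 12.98 in IDA LPS livers, 14.07, 14.09 and 14.69 in KO UT livers and 14.08, 14.16 and 14.15 in IDA UT livers. The 3 IDA LPS livers lay below all other livers. Acly gave -0.57 ± 0.20 (adjusted p = 0.0713) in KO and -1.16 ± 0.20 (adjusted p = 0.000664) in IDA livers. Acss2, which makes acetyl-CoA from acetate, stood at 14.45, 13.88 and 13.25 in KO LPS livers, 13.69, 13.24 and 13.73 in IDA LPS livers, 14.68, 14.49 and 14.70 in KO UT livers and 14.75, 14.88 and 14.89 in IDA UT livers. LPS-treated livers lay below untreated livers in each genotype, and the ratio was -0.76 ± 0.24 (adjusted p = 0.0479) in KO and -1.29 ± 0.24 (adjusted p = 0.00108) in IDA livers. The KO call was at the threshold: leaving out any of 10 livers ended it (adjusted p up to 0.15), the exceptions being IDA LPS 2 and KO LPS 1, and so did the Xist term (adjusted p = 0.107). Me1, a source of NADPH, varied widely among livers of a group (8.99 to 10.29 in IDA LPS livers) and was not called (standard error 0.48).

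In fatty acid synthesis, Acacb fell in IDA livers. Acacb, the carboxylase whose malonyl-CoA restrains fatty acid entry into mitochondria, had log2 intensities of 12.16, 11.63 and 11.87 in KO LPS livers, 11.45, 11.37 and 11.16 in IDA LPS livers, 12.12, 11.89 and 12.19 in KO UT livers and 12.03, 11.80 and 11.93 in IDA UT livers. The IDA LPS livers lay below all other livers. Its ratio was -0.18 (adjusted p = 0.439) in KO and -0.60 (adjusted p = 0.00596) in IDA livers. Fasn, for fatty acid synthase, was dim. It was detected in all KO LPS and KO UT livers, in 2 of 3 IDA UT livers and in no IDA LPS liver. The lowest detected log2 intensity was 6.19 to 6.41 on KO LPS arrays and 6.53 to 6.66 on IDA LPS arrays. Fasn was detected in KO LPS 3 at 6.56, under this limit in IDA LPS 1 and 2. Detection of Fasn is therefore not compared like for like between these groups. Its IDA ratio is a bound, at least 1.10-fold lower after LPS (adjusted p = 0.122), set against the lowest detected intensity of each array, and the KO ratio was -0.39 (adjusted p = 0.295).

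Of the 5 elongation and desaturation genes, 4 fell in IDA livers. Elovl6, which elongates palmitate, had log2 intensities of 11.39, 10.60 and 10.58 in KO LPS livers, 10.37, 10.01 and 10.16 in IDA LPS livers, 12.03, 11.36 and 12.11 in KO UT livers and 12.20, 11.81 and 11.82 in IDA UT livers. IDA LPS livers lay below every untreated liver, and KO LPS 1 lay at the level of KO UT 2. Elovl6 had a log2 ratio of -0.98 ± 0.25 (adjusted p = 0.0168) in KO and -1.76 ± 0.25 (adjusted p = 0.000128) in IDA livers, a level 3.39-fold lower after LPS in IDA mice. The KO call of Elovl6 ended without KO UT 1 (adjusted p = 0.0602), KO UT 3 (adjusted p = 0.0644), KO LPS 2 (adjusted p = 0.0741) or KO LPS 3 (adjusted p = 0.0687) and with the Xist term (adjusted p = 0.0685).

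Fads2, the desaturase that starts polyunsaturated fatty acid synthesis, stood at 13.65, 12.90 and 12.93 in KO LPS livers, 12.17, 12.09 and 12.21 in IDA LPS livers, 13.55, 13.09 and 13.15 in KO UT livers and 13.40, 12.89 and 13.07 in IDA UT livers. The 3 IDA LPS livers were again below the other 9. Fads2 gave -0.11 (adjusted p = 0.767) in KO and -0.96 (adjusted p = 0.00262) in IDA livers. Elovl5, which elongates polyunsaturated fatty acids, had log2 intensities of 15.82, 15.77 and 15.52 in KO LPS livers, 15.29, 15.23 and 15.21 in IDA LPS livers, 15.79, 15.81 and 15.81 in KO UT livers and 15.87, 15.77 and 15.82 in IDA UT livers. IDA LPS livers were the lowest, below all KO LPS livers. LPS gave -0.10 (adjusted p = 0.535) in KO and -0.58 (adjusted p = 0.000685) in IDA livers. Fads1, the partner desaturase of Fads2, gave -0.27 (adjusted p = 0.122) in KO and -0.48 (adjusted p = 0.00421) in IDA livers. The Scd1, Elovl5 and Fads1 probes lay at 79.3 to 92.7%, 52.3 to 89.6% and 54.0 to 96.1% of the highest signal of their array. Scd1, the stearoyl-CoA desaturase, gave -0.02 (adjusted p = 0.924) in KO and 0.08 (adjusted p = 0.508) in IDA livers.

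In triglyceride assembly, Gpam fell and Pnpla3 rose in IDA livers. Gpam, the mitochondrial acyltransferase of the first step, had log2 intensities of 9.47, 8.47 and 8.91 in KO LPS livers, 8.35, 7.38 and 7.86 in IDA LPS livers, 9.35, 9.36 and 9.91 in KO UT livers and 8.92, 8.69 and 8.94 in IDA UT livers. IDA LPS livers lay below all other livers. Gpam had a log2 ratio of -0.59 ± 0.28 (adjusted p = 0.171) in KO and -0.98 ± 0.28 (adjusted p = 0.0122) in IDA livers, and the IDA call ended without IDA LPS 2 (adjusted p = 0.054). Pnpla3, a lipase of lipid droplets that SREBP and ChREBP induce, stood at 11.77, 12 and 12.63 in KO LPS livers, 11.82, 10.21 and 11.74 in IDA LPS livers, 10.49, 10.32 and 12.40 in KO UT livers and 7.79, 7.85 and 8.53 in IDA UT livers. IDA UT livers lay below all other livers, and KO UT livers lay within the range of the LPS-treated ones. LPS gave 1.06 ± 0.55 (adjusted p = 0.207) in KO and 3.20 ± 0.55 (adjusted p = 0.000541) in IDA livers, or 9.18-fold in IDA mice. The responses differed by -2.13 (adjusted p = 0.0997), which was not called. Without the livers with strong Xist signal the KO ratio was -0.26, with KO UT 3 as the 1 untreated KO liver. Dgat2, which adds the last acyl chain, gave 0.19 (adjusted p = 0.269) in KO and -0.04 (adjusted p = 0.77) in IDA livers.

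**Figure D3:**
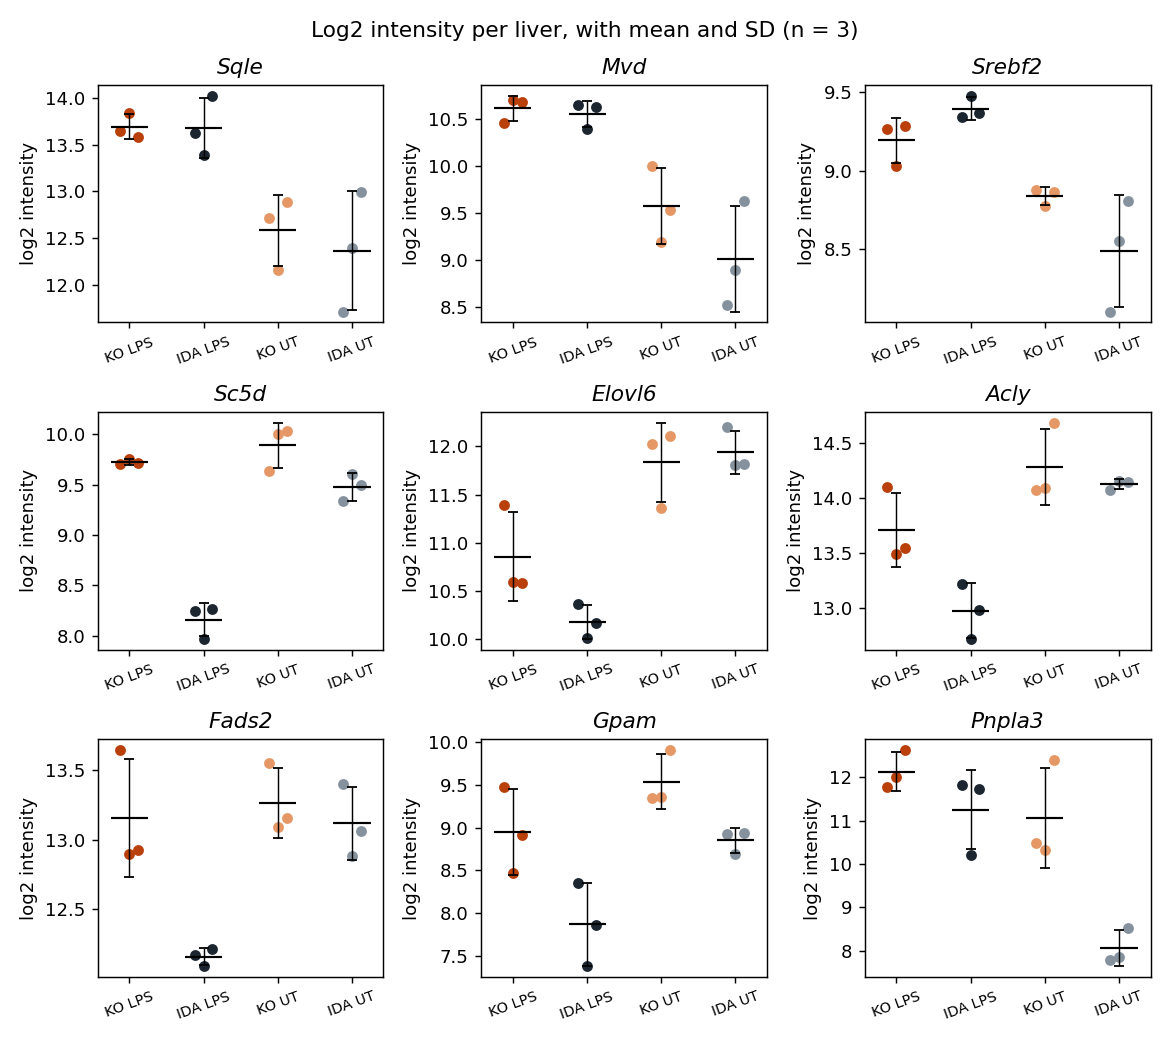
Log2 intensity of 9 genes in each liver (points), with the group mean (line) and standard deviation (bar) of 3 livers, for KO LPS, IDA LPS, KO UT and IDA UT mice. Sc5d, Fads2 and Acly are lowest in the 3 IDA LPS livers, Mvd and Sqle are high in both LPS groups, and Pnpla3 is lowest in the 3 IDA UT livers (7.79 to 8.53).

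Of the 12 genes that fell in IDA livers, 11 had a negative and all 12 a smaller log2 ratio in KO livers, and 2 (Elovl6 and Acss2) were also called there. Genes were chosen here by their IDA response, which makes a smaller KO response likelier. Of all 3008 features lower in IDA livers, 89.1% had the same sign and 95.2% a smaller response in KO livers, and 26.4% were called there. Of the 4 genes that rose in IDA livers, 4 were positive and 4 smaller in KO livers and 2 were called there, while of all 2531 features higher in IDA livers these shares were 86.1, 91.8 and 40.7%. In the Interaction contrast, which tests the difference between the 2 responses, 2 of 30 genes were called, Sc5d and Idi1, both with a higher response in KO livers, where 10.9% of all features were called (5.46% higher and 5.49% lower). Without the livers with strong Xist signal, where KO UT is 1 liver, the Interaction log2 ratio was 1.08 for Sc5d, 1.63 for Idi1 and -3.33 for Pnpla3. With the term for the signal 2 genes were called, Sc5d higher and Pnpla3 lower (-2.53, adjusted p = 0.0365). Of all features 10.4% were called in that fit. The median Interaction log2 ratio was 0.28, against 0.03 over all features, and 23 of the 30 genes were positive, as were 53.4% of all features.

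After LPS, 8 of the 30 genes were higher in KO than in IDA livers and none was lower, where 29.8% of all features were called (16.1% higher and 13.7% lower). The share of called genes was near that of all features, and all 8 ran in 1 direction. At an unadjusted p under 0.05, 12 were higher and 1, Insig2, was lower (-0.51 (adjusted p = 0.0736)). No share of all features was taken at this unadjusted limit, so nothing is read from these counts. Further Insig2 probes gave 0.45 (adjusted p = 0.472) and -0.65 (adjusted p = 0.145) and so differed in sign. The median log2 ratio was 0.43, against 0.02 over all features, and 28 of 30 genes were positive, as were 52.1% of all features. Sc5d, with KO LPS livers at 9.71 to 9.76 and IDA LPS livers at 7.97 to 8.26, was 2.96-fold higher in KO LPS livers, at 1.57 ± 0.13 (adjusted p = 3.61e-05). Fads2 was 2-fold higher, at 1.00 ± 0.21 (adjusted p = 0.00458), and Elovl5 was at 0.46 ± 0.10 (adjusted p = 0.00655). The omission of any 1 liver ended none of these 3 calls.

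The other 5 called genes were Gpam, at 1.08 (adjusted p = 0.0132), Acly, at 0.74 (adjusted p = 0.0185), Srebf1, at 0.74 (adjusted p = 0.0345), Idi1, at 0.72 (adjusted p = 0.0245), and Acacb, at 0.56 (adjusted p = 0.015). Each of these 5 calls depended on single livers. Gpam was not called without IDA LPS 2 (adjusted p = 0.0506) or KO LPS 1 (adjusted p = 0.0525), and Acly was not called without IDA LPS 2 (adjusted p = 0.0693) or KO LPS 1 (adjusted p = 0.0735). Srebf1 was not called without IDA LPS 2 (adjusted p = 0.0751), IDA LPS 3 (adjusted p = 0.118), KO LPS 2 (adjusted p = 0.0593) or KO LPS 3 (adjusted p = 0.12). Idi1 was not called without IDA LPS 2 (adjusted p = 0.0843) or KO LPS 2 (adjusted p = 0.0785), and Acacb without IDA LPS 3 (adjusted p = 0.0598) or KO LPS 1 (adjusted p = 0.0607). Without IDA LPS 2, which had the lowest level of the group in 23 of 30 genes, 4 genes were called. Of all features 24.8% were then called. This comparison shares the IDA LPS livers with the LPS response in IDA mice, so that the same livers set both. Side by side, the log2 ratios of KO LPS vs IDA LPS and of IDA LPS vs IDA UT livers were 1.57 and -1.32 for Sc5d, 1.00 and -0.96 for Fads2, 1.08 and -0.98 for Gpam, and 0.74 and -1.16 for Acly.

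Of the 30 genes 13 were higher and 1 lower in KO LPS than in IDA LPS livers without overlap, against 24.6 and 21.8% of all features. Besides the 8 called genes these were Lss (0.47 (adjusted p = 0.13)), Hsd17b7 (0.26 (adjusted p = 0.242)) and Elovl6 (0.68 (adjusted p = 0.0578)). Fads1 (0.21 (adjusted p = 0.177)) and Fasn (0.54 (adjusted p = 0.116)) were the others. No IDA LPS liver detected Fasn, and the detection limit was higher on IDA LPS arrays. The lower one was Srebf2 (-0.20 (adjusted p = 0.357)). Mvd and Sqle, which rose in both genotypes, had log2 ratios of 0.06 (95% interval -0.51 to 0.63, adjusted p = 0.885) and 0.01 (95% interval -0.63 to 0.65, adjusted p = 0.976) between KO LPS and IDA LPS livers, so that differences inside these intervals cannot be told from 0.

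**Figure D4:**
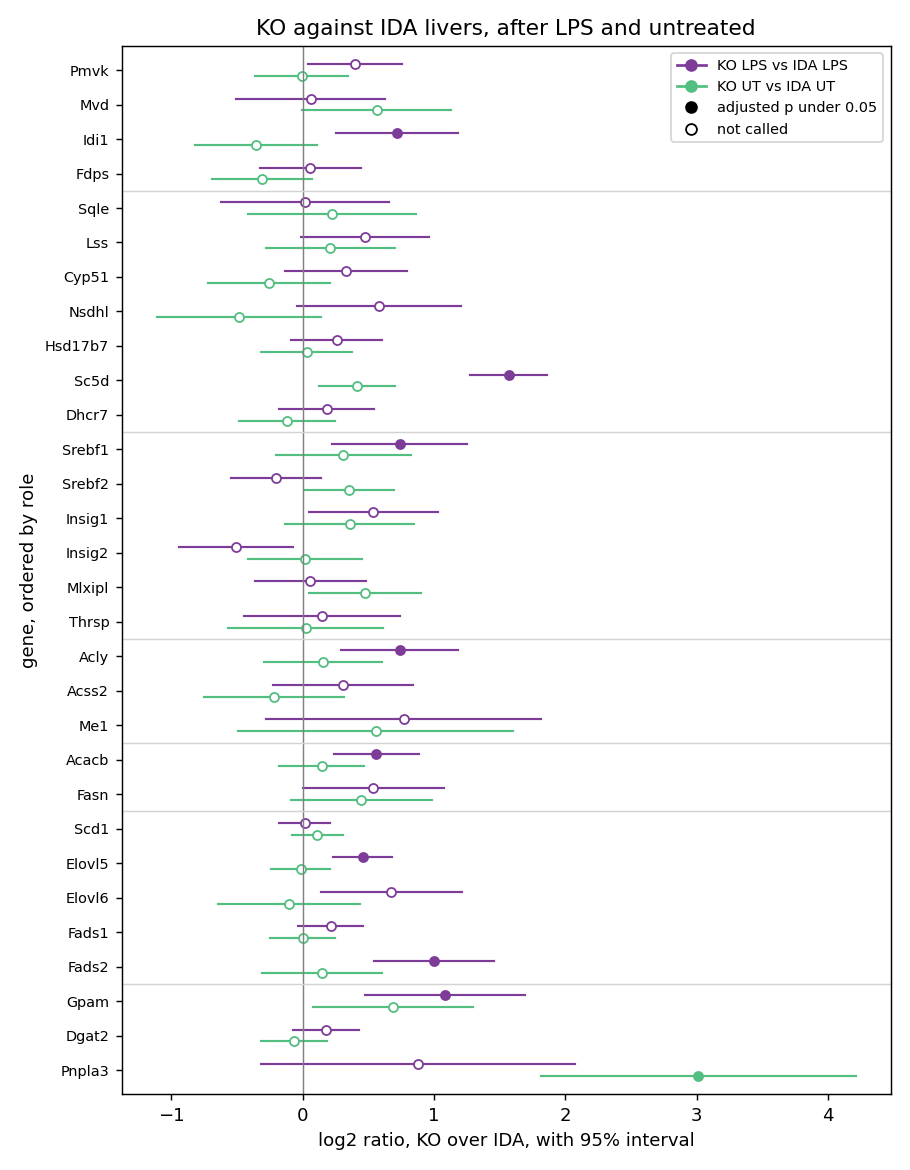
Log2 ratio of KO over IDA livers for each gene, purple after LPS and green untreated, with unadjusted 95% intervals and filled points for an adjusted p under 0.05. After LPS 28 of 30 points lie right of 0 and 8 are filled, and untreated only Pnpla3 (3.01) is filled.

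In untreated livers Pnpla3 alone was called, and it was higher in KO mice. It had a log2 ratio of 3.01 ± 0.55 (adjusted p = 0.0192), or 8.07-fold, with KO UT livers at 10.49, 10.32 and 12.40 and IDA UT livers at 7.79, 7.85 and 8.53. The groups did not overlap, and KO UT 3 stood apart from the other KO UT livers. Of all features 2.5% were called (1.59% higher and 0.907% lower). The call ended without IDA UT 2 (adjusted p = 0.0672), when the LPS-treated livers were left out of the fit (adjusted p = 0.0771) and with a trend and robust moderation (adjusted p = 0.0514). Without KO UT 3 the ratio was 2.35, or 5.09-fold (adjusted p = 0.045). Without the livers with strong Xist signal KO UT was this 1 liver, and the ratio was 4.21, or 18.5-fold. With a term for the signal the ratio was 3.41, or 10.6-fold (adjusted p = 0.0107). Pnpla3 was again the 1 gene called in that fit, where 1.80% of all features were called.

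The other 29 genes were not called, and 4 of them were higher and 2 lower in KO UT livers without overlap, against 11 and 11.3% of all features. The higher ones were Sc5d, at 0.41 (95% interval 0.12 to 0.71, adjusted p = 0.133), Gpam, at 0.69 (95% interval 0.08 to 1.30, adjusted p = 0.228), Insig1, at 0.36 (adjusted p = 0.451), and Scd1, at 0.11 (adjusted p = 0.568). The lower ones were Acss2 (-0.22 (adjusted p = 0.705)) and Dgat2 (-0.06 (adjusted p = 0.817)). The median log2 ratio was 0.13, against -0.01 over all features, and 19 of 30 genes were positive. Intervals were wide for Me1, at 0.56 (95% interval -0.49 to 1.60, adjusted p = 0.596), and Nsdhl, at -0.48 (95% interval -1.11 to 0.14, adjusted p = 0.418).

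Genes next to the list in the same pathways were taken from lists written by name, and their counts stand beside 29.8% of all features called in KO LPS vs IDA LPS (16.1% higher), 47.9% in IDA LPS vs IDA UT (26% lower) and 18.8% in KO LPS vs KO UT livers (8.57% lower). With 3 to 18 genes a list, nothing is read from a list's share against these. Of 18 glycerolipid assembly and lipid droplet genes, 9 were higher and none lower in KO LPS than in IDA LPS livers, 10 were lower and 2 higher in IDA LPS than in IDA UT livers, and 2 were lower and none higher in KO LPS than in KO UT livers. Cidec, which fuses lipid droplets, rose in IDA livers (2.18 (adjusted p = 0.00333)), while Plin4, a droplet coat protein, and Lpin2, a phosphatidate phosphatase, fell (-2.07, adjusted p = 3.2e-05 and -1.37, adjusted p = 1.96e-05). G0s2, an inhibitor of the main triglyceride lipase, was higher in KO LPS than in IDA LPS livers (2.56 (adjusted p = 0.000417)). Its response, with those of Plin4 and Plin5, was the called part of the Interaction contrast, at 2.13 (adjusted p = 0.02), 1.56 (adjusted p = 0.0157) and 1.03 (adjusted p = 0.0132).

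Of 6 genes of LXR and its sterol targets, 4 were lower and none higher in IDA LPS than in IDA UT livers, and 3 were lower and 1 higher in KO LPS than in KO UT livers. The sterol exporter gene Abcg8 fell in both, at -1.47 (adjusted p = 0.000338) in KO and -2.18 (adjusted p = 4.17e-06) in IDA livers. Lpcat3, a phospholipid acyltransferase, fell in both too, at -0.47 (adjusted p = 0.0322) and -1.34 (adjusted p = 1.1e-05), with an Interaction log2 ratio of 0.87 (adjusted p = 0.016). Of 5 genes of sterol uptake, sensing and SREBP processing, 3 were lower in each genotype after LPS and none was higher. These were Scap, the SREBP escort, at -0.64 (adjusted p = 0.0213) in KO and -0.99 (adjusted p = 0.000537) in IDA livers, the sterol carrier Stard4 and the lysosomal exporter Npc1. Of 3 other sterol enzymes 2 fell in IDA livers, Tm7sf2 (-0.78 (adjusted p = 0.00219)) and Ebp (-0.75 (adjusted p = 0.00139)). Of 5 genes of glycolytic and NADPH input 3 fell in IDA livers, among them Khk, the fructokinase (-0.53 (adjusted p = 0.00932)). Of 8 other elongation and desaturation enzymes 3 fell and 1 rose in IDA livers, among them Elovl2 (-0.73 (adjusted p = 0.00129)). In KO UT vs IDA UT livers 0 of the 45 genes of these 6 lists were called by limma, where 2.5% of all features were called. At an unadjusted p under 0.05, 6 were higher and 5 lower, and no share of all features was taken at that limit. Over all 45 genes, 25 were lower and 3 higher in IDA LPS than in IDA UT livers, 8 lower and 3 higher in KO LPS than in KO UT livers, and 4 higher in the Interaction contrast. Without the livers with strong Xist signal, a setting chosen after seeing the data, 23 were lower and 3 higher in IDA LPS than in IDA UT livers. With the Xist term 25 were lower and 2 higher in that comparison. In KO LPS vs KO UT livers 4 were then lower and 1 higher, and 4 were higher in the Interaction contrast. None of the 3 sterol uptake, sensing and SREBP processing genes was called in KO livers with the Xist term.

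Livers within a group differed along the whole list. Among the sterol genes, IDA LPS 2 had the lowest level of its group in 11 of 11, IDA UT 1 in 10 of 11 and KO UT 2 in 9 of 11. Over all 30 genes, KO UT 2 was the lowest KO UT liver in 21, while IDA UT 3 was the highest IDA UT liver in 15 and KO LPS 1 the highest KO LPS liver in 16. KO UT 2 and IDA UT 1 are livers with a strong Xist signal.

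Marker genes of other cell types differed with LPS and, after LPS, between genotypes. In KO UT vs IDA UT livers 0 Kupffer cell, neutrophil, endothelial or stellate cell markers were called. Of all features 29.8% were called in KO LPS vs IDA LPS, 47.9% in IDA LPS vs IDA UT and 18.8% in KO LPS vs KO UT livers. All 8 measured Kupffer cell markers were higher in KO LPS than in IDA LPS livers, with a summed level of 12.28 to 12.99 in KO LPS and 11.74 to 12.03 in IDA LPS livers (log2), and 6 of the 8 were lower and 1 higher in IDA LPS than in IDA UT livers. Endothelial markers were at 12.67 to 12.84 in KO LPS and 11.78 to 12.07 in IDA LPS livers, and 3 of 7 were called higher, while 5 of 7 were lower in IDA LPS than in IDA UT livers. All 4 measured neutrophil markers rose after LPS in both genotypes, to 11.73 to 13.04 in KO LPS, against 9.48 to 10.14 in KO UT livers, and to 13.82 to 14.19 in IDA LPS, against 8.71 to 10.81 in IDA UT livers. Ngp, Camp, Mpo and Elane were not detected. Of the stellate cell markers 2 of 4 were higher in KO LPS than in IDA LPS livers. The summed level of 8 hepatocyte markers was 17.46 to 17.51 in KO LPS, 17.47 to 17.56 in IDA LPS, 17.56 to 17.65 in KO UT and 17.63 to 17.79 in IDA UT livers. Ttr (15.82 to 15.96 in all livers) and Apoa1 (15.89 to 15.96) made up most of this sum. It could therefore hardly show changes in the dimmer markers among the 8, and a stable hepatocyte content is not read from it. Of these 8, Alb and Cps1 were lower in IDA LPS than in IDA UT livers (-0.89 (adjusted p = 0.000992) and -0.79 (adjusted p = 0.00396)), Cps1 in KO LPS than in KO UT livers (-0.73 (adjusted p = 0.0162)) and Hnf4a in KO UT than in IDA UT livers (-0.52 (adjusted p = 0.0385)), and Alb was higher in KO LPS than in IDA LPS livers (0.65 (adjusted p = 0.0134)). The Alb probe read only 7.19 to 8.58, far below Ttr and Apoa1, so its calls are those of a dim probe. Of the adipocyte markers Car3 was measured, and Adipoq, Lep, Plin1, Retn and Lipe were not detected. The part of these cells in the lipid gene results was not tested.

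Of the 30 genes 13 had further detected probes, 17 in all. Over 85 pairs of probe and comparison, 12 gave another call and none an opposite one. Besides Srebf2 and Mlxipl, a second Fads2 probe passed in the Interaction contrast (1.03, adjusted p = 0.0486). Dim probes of Thrsp (1.82, adjusted p = 0.0126) and Fads1 (1.03, adjusted p = 0.0185) were higher in KO LPS than in IDA LPS livers. A dim Fdps probe was higher in KO LPS than in KO UT livers (2.40, adjusted p = 0.0271). Other probes did not pass where the brightest did. In KO LPS vs KO UT livers this was an Acss2 probe (-0.66, adjusted p = 0.268). In IDA LPS vs IDA UT livers these were probes of Fads1 (-0.42, adjusted p = 0.251), Nsdhl (-0.76, adjusted p = 0.0519) and Acacb (-0.47, adjusted p = 0.0755). The same dim Acacb probe did not pass in KO LPS vs IDA LPS livers (0.43, adjusted p = 0.131).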

How the data were processed

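RNA of 12 livers was hybridized by the authors to Illumina MouseWG-6 BeadChips and read with GenomeStudio, version not given in the sources used here. The deposited table gives for each probe the mean signal of its beads as an unnormalized intensity, and a detection p-value. The authors also deposited intensities normalized by cubic spline, used here as an alternative, and 0 per-sample columns were left unused. Here neqc (limma 3.58.1, R 4.3.3, offset 16) was run on the unnormalized values for background correction, quantile normalization and log2 transformation. A probe was kept where its detection p was under 0.01 on 1 or more arrays, 16286 of 45281, and the brightest probe of each gene symbol was used, giving 9307 genes and 2264 unnamed probes. Symbols came from the platform annotation, updated to RefSeq on GRCm38. A model of 4 group means over all 12 arrays was fitted with limma (empirical Bayes), with Benjamini-Hochberg adjustment within each contrast. The number of arrays limits the precision. The labels number replicates as separate mice. Same-numbered livers did not deviate together (correlations of -0.11 to 0.24), so numbers were not used as pairs.

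The steps were tested on simulated data. The gene list, the other pathway lists and the marker lists were chosen with earlier results of these data known. The genes named were all on the list, at most the 3 with the largest passing log2 ratio of each other list and comparison, and Tmprss6, Xist and Eif2s3y. Alternatives were other normalizations, filters, probes, fits and thresholds, and each liver left out in turn. Promoter windows came from RefSeq and figures from matplotlib 3.10.9 in Python 3.11.15.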

Additional observations from a re-analysis of the deposited data

Results flagged for a closer look

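The LPS response of 2 genes differed between KO and IDA livers by the Interaction test, and each is given with its values only. Sc5d differed by 1.15 on the log2 scale (adjusted p = 0.00405), with a response of -0.16 (adjusted p = 0.433) in KO and -1.32 (adjusted p = 1.11e-05) in IDA livers. Its sign and call held without each of the 12 livers in turn. Over these omissions and all other settings together its log2 difference was 0.90 to 1.23. Idi1 differed by 1.07 (adjusted p = 0.0416), with a response of 0.56 (adjusted p = 0.0864) in KO and -0.51 (adjusted p = 0.0663) in IDA livers, and leaving out any of 10 livers, the Xist term, the replicate block or no filter on dim probes ended the call. IDA LPS 1, 2 and 3 lay at 6.80, 6.51 and 6.87 for Idi1, and 1 of them was not above the detection limit. Marker genes of other cell types also differed among these livers, as given above, and the part of those cells in both results was not tested.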

How the results depend on the processing

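None of the 32 called log2 ratios of single genes changed sign under any setting that was run, whereas 37 of the 118 that were not called did under at least 1 (the largest was 1.06, for Pnpla3 in KO LPS vs KO UT). Counts of called genes are given for KO UT vs IDA UT, KO LPS vs IDA LPS, IDA LPS vs IDA UT, KO LPS vs KO UT and Interaction, 1, 8, 16, 5 and 2 in the report. An absolute log2 ratio over 1 left 3 in KO LPS vs IDA LPS, 7 in IDA LPS vs IDA UT and 2 in KO LPS vs KO UT. At that limit 6.77, 16.03 and 5.2% of all features were called. KO LPS vs IDA LPS gave 11 with the mean of all detected probes and 10 with the authors' normalized intensities (30.2 and 30.7% of all features). It gave 7 without a filter on dim probes (17.3% of all features). KO LPS vs KO UT gave 2 without a filter on dim probes and 2 with only the groups compared in the fit. A term for strong Xist signal also gave 2 there. The shares of all features were 6.40, 15.8 and 11.7%. The split of 2 higher and 3 lower in KO LPS vs KO UT became 3 and 2 with the mean of all detected probes. It became 2 and 0 with only the groups compared or a log2 ratio over 1. Without a filter it was 1 and 1, and with the Xist term 0 and 2. KO UT vs IDA UT gave 0 with only the groups compared and 0 with trend and robust moderation (0.389 and 2.10% of all features). Leaving out each liver in turn gave 0 to 1, 4 to 9, 13 to 18, 0 to 5 and 1 to 2. The shares of all features were 0.761 to 3.77, 21.7 to 31.4, 42.5 to 48.2, 11.6 to 20.4 and 6.92 to 10.8%. The lowest count in KO UT vs IDA UT came without IDA UT 2 (1.03% of all features). In KO LPS vs IDA LPS and in IDA LPS vs IDA UT it came without IDA LPS 2 (24.8 and 43.2% of all features). In KO LPS vs KO UT it came without KO LPS 2 (11.6% of all features). Fewer livers were then fitted.

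With the replicate number as a block the counts were 1, 10, 17, 5 and 3. The shares of all features were 2.17, 29.1, 47.2, 18.0 and 9.50%. The labels do not pair the livers and the correlation between same-numbered livers was -0.11 to 0.24, so these counts are given for completeness. Over all genes and settings 3417 values were on the same side of the threshold, 61 passed newly and 92 no longer passed.

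Each group holds 3 livers. The placing of the livers on BeadChips was not given in the sources used here, so chip effects were not tested. The Scd1, Fads1 and Elovl5 probes lay near the top of the signal range and those of Fasn and Idi1 near the detection limit. For the other changed counts the cause was not tested.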
